A study of Homo sapiens with 6 samples.

Results

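The genes described here encode the DNA replication machinery. They are 54 named genes of the origin recognition complex, origin licensing, the replicative helicase, the polymerases, the sliding clamp and its loaders, and the fork proteins, chosen by name among the 58174 genes of the deposited table. All 54 were found, and all 54 had a mean of at least 0.5 FPKM over the libraries, the minimum for testing, which 15069 genes of the table met. FPKM are reads divided by gene length and by the size of the library.

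The mRNA-seq compared KNS42 cells depleted of MSI1 with control cells, to ask how the RNA-binding protein Musashi1 shapes the mRNA content of a glioblastoma (GBM) cell model. KNS42 is an established line from a pediatric GBM and stands here for 1 tumor. The cells of both groups were grown with serum and harvested 72 h after transfection, either with a control siRNA (siC, 3 libraries) or with siRNAs directed at MSI1 (siMSI1, 3 libraries), and polyA RNA was sequenced. The libraries held 13087025 to 18024080 reads on genes. The labels do not state whether the libraries of a group came from separate cultures, so the p-values measure the spread between these libraries, which may be technical. The chi-square per degree of freedom between libraries of a group was 3.55 to 11.2, well above counting noise, so no library was a duplicate. MSI1 measured 63.7, 61.9 and 66.9 FPKM in the siC libraries against 12.1, 12.3 and 11.2 FPKM in those of siMSI1, so every library matched its label. Of 11 neural and glioma markers, 8 had a mean of at least 1 FPKM, among them NES, VIM, SOX2 and SOX9, whereas S100B and OLIG2 were listed at 0 in all libraries. The summed level of the list, which includes MSI1 itself, was 1574 to 1640 FPKM in siC and 1255 to 1355 FPKM in siMSI1. The largest part of it was VIM, with means of 1035 FPKM in siC and 865.5 FPKM in siMSI1. GFAP of the same list went the other way, from 1.63 ± 0.335 to 4.61 ± 0.450 FPKM (SD, n = 3, limma, adjusted p = 0.000905). Markers of immune cells (0 of 5), endothelial cells (0 of 4) and oligodendrocytes (0 of 3) were below 1 FPKM, with summed levels of at most 0.669, 0.442 and 0.0335 FPKM in any library. The epithelial list had KRT8 and KRT18 above 1 FPKM (2 of 4, summed level 19.1 to 26.0 FPKM). The neuron list had SYP and TUBB3 above it (2 of 4, 14.2 to 15.3 FPKM in siC and 9.75 to 11.4 FPKM in siMSI1). The lower sum in siMSI1 was mostly that of SYP (12.9 to 8.93 FPKM), whereas TUBB3 did not fall (1.54 and 1.68 FPKM). Whether these marker levels have a part in the results was not tested.

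A cell copies its genome once per cycle in a fixed order of steps. The origin recognition complex marks the starting points, and CDC6 and CDT1 load the ring of MCM2 to MCM7 onto DNA there while the cell is in G1. Kinases then add CDC45 and the GINS complex to the ring, which becomes the active helicase, and polymerase alpha with primase, polymerase epsilon and polymerase delta copy the opened strands. Most of these genes are transcribed in a wave at the entry into S phase that is driven by E2F transcription factors, and their mRNAs are therefore commonly read as a sign of proliferation. In RNA from a whole culture, fewer cells in S phase and less of an mRNA in each cell cannot be told apart.

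Some of these genes have, near the start site, letters of the kind that E2F factors recognise. RefSeq promoter windows on GRCh38.p14, from 250 bases before to 50 bases after the start site, were held for 46 of the 54 genes and were searched on both strands for TTTCCCGC, TTTGGCGC, TTTGCCGC and TTTCGCGC, of which TTTGGCGC and the reverse complement of TTTCGCGC overlap in the string TTTGGCGCGAAA. At least 1 word was present for 23 of 46 replication genes (50%), for 639 of 9157 tested genes with a window (6.98%) and in 1164 of all 35116 windows (3.31%). Some genes had more than 1 window, such as MCM7 with 3, and a gene was counted if any of its windows held a word. The windows of 5 genes are shown: those of GINS2, CDC6 and CHAF1B, the 3 genes with the lowest fold changes, that of MCM6, which holds the words in 2 repeats, and that of GMNN, the gene with the highest fold change. GMNN had 2 windows, and 1 that holds a word is shown. The windows run 5′ to 3′ on the strand of the gene, with the words in capitals.
GINS2 (chr16:85688905-85689204, minus strand): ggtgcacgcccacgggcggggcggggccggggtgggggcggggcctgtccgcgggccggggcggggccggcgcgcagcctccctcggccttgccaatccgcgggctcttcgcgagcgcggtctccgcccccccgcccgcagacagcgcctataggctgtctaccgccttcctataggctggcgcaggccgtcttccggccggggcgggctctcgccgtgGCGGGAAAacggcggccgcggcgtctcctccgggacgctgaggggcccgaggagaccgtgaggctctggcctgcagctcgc
CDC6 (chr17:40287629-40287928, plus strand): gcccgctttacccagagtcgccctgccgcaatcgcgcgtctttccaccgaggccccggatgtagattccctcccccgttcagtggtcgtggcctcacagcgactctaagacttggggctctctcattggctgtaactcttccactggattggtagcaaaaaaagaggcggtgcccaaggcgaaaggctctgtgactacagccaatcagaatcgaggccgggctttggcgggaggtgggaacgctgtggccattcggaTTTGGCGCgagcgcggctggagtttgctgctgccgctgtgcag
CHAF1B (chr21:36385142-36385441, plus strand): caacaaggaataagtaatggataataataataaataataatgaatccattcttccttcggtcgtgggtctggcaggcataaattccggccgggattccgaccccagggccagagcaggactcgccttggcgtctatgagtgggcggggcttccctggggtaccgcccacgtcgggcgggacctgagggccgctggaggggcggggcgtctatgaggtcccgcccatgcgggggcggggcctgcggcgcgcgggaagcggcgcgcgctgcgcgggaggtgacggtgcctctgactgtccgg
MCM6 (chr2:135876394-135876693, minus strand): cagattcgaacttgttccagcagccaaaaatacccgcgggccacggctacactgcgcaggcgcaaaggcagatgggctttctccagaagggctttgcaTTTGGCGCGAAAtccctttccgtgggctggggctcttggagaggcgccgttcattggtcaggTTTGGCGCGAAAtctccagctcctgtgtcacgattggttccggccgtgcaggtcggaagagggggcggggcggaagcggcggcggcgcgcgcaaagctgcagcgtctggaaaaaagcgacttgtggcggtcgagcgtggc
GMNN (chr6:24775163-24775462, plus strand): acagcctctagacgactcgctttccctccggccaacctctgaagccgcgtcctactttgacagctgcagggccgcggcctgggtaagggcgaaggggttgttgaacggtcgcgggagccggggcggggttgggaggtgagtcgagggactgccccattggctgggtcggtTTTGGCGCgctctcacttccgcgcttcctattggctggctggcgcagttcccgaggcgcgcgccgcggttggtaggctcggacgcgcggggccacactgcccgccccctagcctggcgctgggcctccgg
The word began at position −31 from the start site in GINS2, at 8 in CDC6 and at −80 in GMNN. In MCM6, words began at −152, −148, −90 and −86. The CHAF1B window held none of these words. The words were present for 9 of the 19 genes with a window that were past the test as lower (47.4%) and for 14 of the 27 that were not (51.9%). The median log2 fold change was −0.36 over the 23 replication genes with a word and −0.42 over the 23 without. Over all tested genes with a window, it was −0.06 with a word and −0.00 without. A match says only that the letters are present, and MCM4, MCM5, GINS4, RPA2, RPA3, POLD3, DSCC1 and RECQL4 were not searched.

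Upon MSI1 knockdown, replication genes were lower as a group, and GINS2, CDC6, CHAF1B, CDC45 and MCM10 fell most. The test was limma on log2(FPKM + 0.1) over all 15069 tested genes, with Benjamini-Hochberg adjustment and a threshold of 0.01. Of the 54 genes, 23 were past it and lower in siMSI1 (42.6%), where 5.83% of all tested genes were. No replication gene was past it and higher, where 5.15% of all tested genes were. At an unadjusted p under 0.05, 1 gene (GMNN) was higher, and limma's voom on the recovered reads also called 0. The median log2 fold change was −0.41 over the 54 genes and 0.00 over all tested genes, and 47 of the 54 values were below 0. The 3 siMSI1 values lay entirely below the 3 siC values for 38 genes, where this held for 21.5% of all tested genes. They lay entirely above them for GMNN and RPA2, which makes 2, where this held for 21.4%. Most changes were modest: GINS2 was the 1 gene that was past the threshold with a fall of 2-fold or more, where 0.995% of all tested genes were. Fold changes are on the log2(FPKM + 0.1) scale, so the change of weakly expressed genes is understated.

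**Figure D1:**
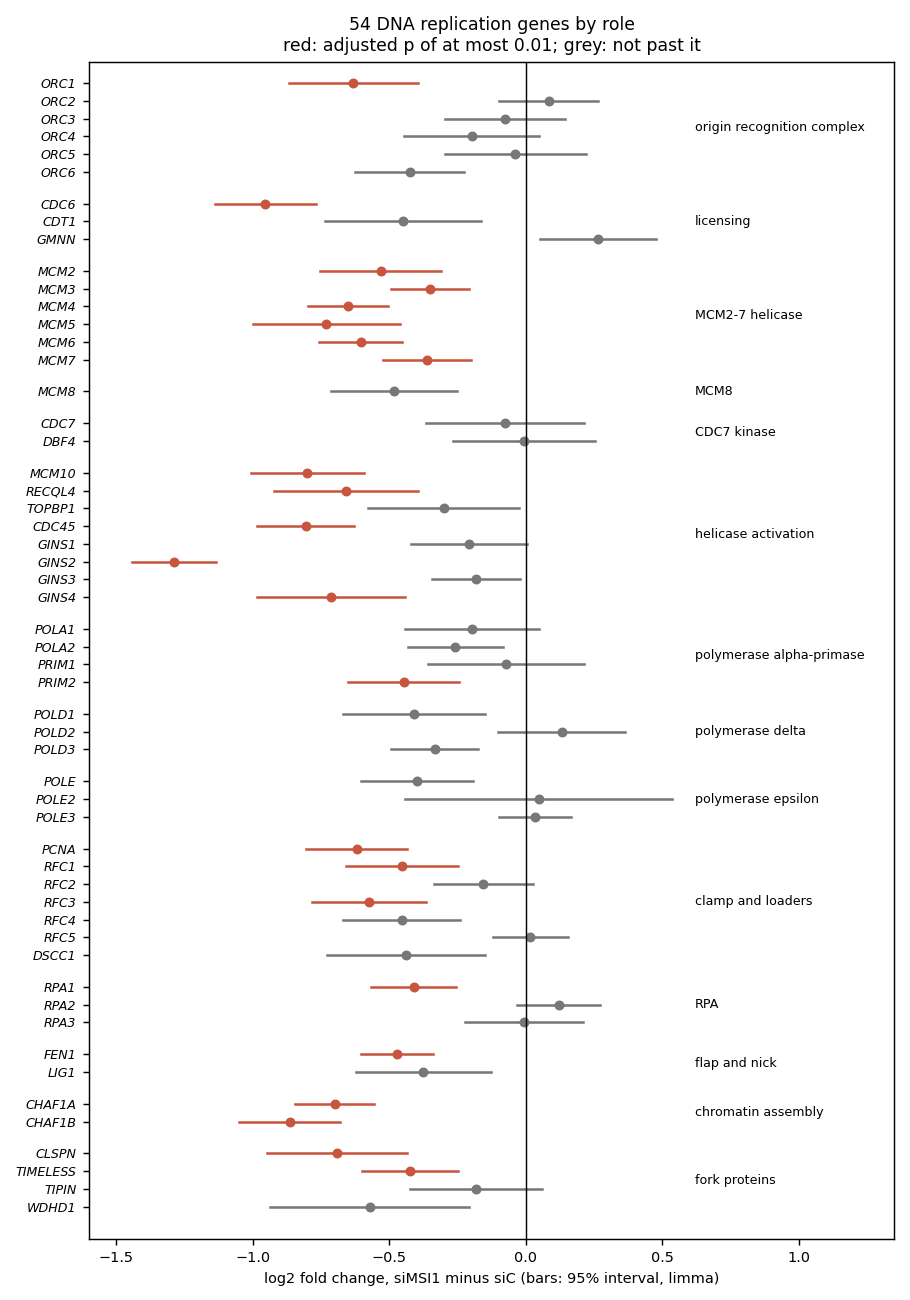
Log2 fold change (siMSI1 minus siC, on log2(FPKM + 0.1)) of the 54 replication genes on the horizontal axis, ordered by role, with 95% intervals from limma. Red points are past an adjusted p of 0.01; all 23 of them lie to the left of 0, and all 6 genes of the MCM2-7 ring are among them.

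How many genes passed varied with the libraries used. There were 8 without siC replicate 1, 13 without siC replicate 2 and 11 without siC replicate 3. It was 12, 11 and 24 without siMSI1 replicates 1, 2 and 3. The count over all genes moved too, from 879 lower genes to 280 without siC replicate 1 (1.86% of those tested). This share was 2.99% and 2.78% without siC replicates 2 and 3, and 2.87%, 3.32% and 6.16% without siMSI1 replicates 1 to 3. The 23 genes had a negative fold change in each of the 18 alternatives tried, which for most of these was fixed in advance. Their groups did not overlap, so leaving out a library cannot turn the sign. Filters, variance moderation, the replicate block and the threshold leave the fold change itself as it was. Of the 23, 8 (MCM4, MCM6, MCM10, GINS2, CDC45, CDC6, CHAF1A and CHAF1B) were past the threshold in every alternative. PCNA and FEN1 missed it in 1 alternative, without siC replicate 1. The other 13 were not past it in at least 4 of the 6 fits that left out a library. Among them, RFC1 and PRIM2 were past it in 0 of these 6.

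The fall was of like size in each siMSI1 library. Relative to the siC mean of each gene, the median of the 54 genes was −0.36, −0.39 and −0.37 in siMSI1 replicates 1 to 3 on the log2 scale, and between −0.03 and 0.01 in the siC libraries. In siMSI1, 45, 45 and 46 of the 54 genes were below the siC mean. The median over all tested genes stayed between −0.00 and 0.01 in the 6 libraries.

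**Figure D2:**
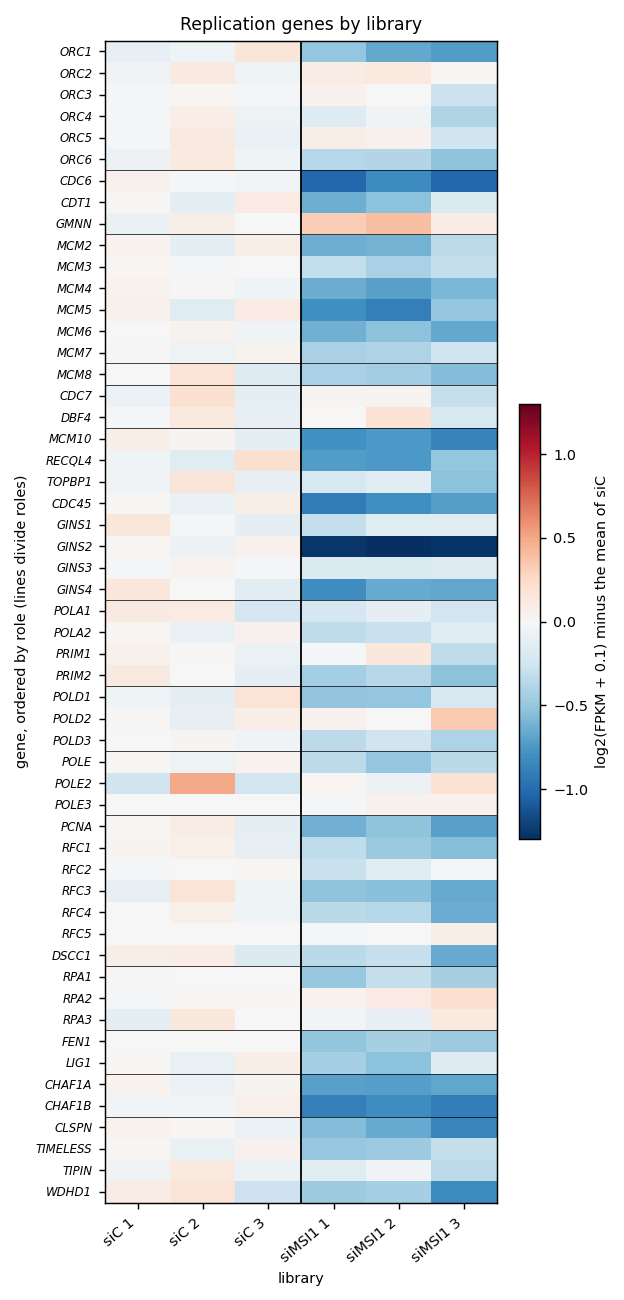
Each row is a replication gene and each column a library, colored by log2(FPKM + 0.1) minus the siC mean of the gene, with lines between roles. Blue is lower: the row of GINS2 is the darkest in each of the 3 siMSI1 columns, whereas GMNN, RPA2 and ORC2 are pale red there.

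Each of the 6 genes of the MCM2-7 ring, the motor of the replicative helicase, fell, by a median of 0.57 on the log2 scale. Values are given in the order of replicates 1 to 3. MCM2 measured 63.0, 56.6 and 64.3 FPKM in the siC libraries against 39.4, 39.9 and 48.2 FPKM in those of siMSI1. The groups did not overlap, and siMSI1 replicate 3 was the highest of its group. The log2 fold change of MCM2 was −0.53 (limma, adjusted p = 0.00679, standard error 0.096). MCM3 measured 89.2, 85.8 and 87.6 FPKM in the siC libraries against 70.0, 65.1 and 70.5 FPKM in those of siMSI1. The siC values of MCM3 were close together, all 3 siMSI1 values were below them, and its fall was the smallest of the ring, at 78.3% of the siC level (limma, adjusted p = 0.00601). MCM4 measured 35.7, 35.0 and 33.3 FPKM in the siC libraries against 22.1, 21.2 and 22.9 FPKM in those of siMSI1. Both groups of MCM4 were tight and far apart, with a log2 fold change of −0.65 (limma, adjusted p = 0.000594, standard error 0.064).

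MCM5 was the least abundant gene of the ring per length and measured 21.3, 18.3 and 22.0 FPKM in the siC libraries against 11.7, 11.1 and 14.4 FPKM in those of siMSI1. Its groups did not overlap, and the fold change of MCM5 was the largest of the ring at −0.73 (limma, adjusted p = 0.00413, standard error 0.12). MCM6 measured 51.5, 53.1 and 49.4 FPKM in the siC libraries against 33.3, 35.5 and 32.4 FPKM in those of siMSI1. All siMSI1 values of MCM6 were well below the siC values, with a log2 fold change of −0.60 (limma, adjusted p = 0.000866, standard error 0.065). MCM7 was the most abundant of all 54 genes per length and measured 137, 129 and 140.2 FPKM in the siC libraries against 101, 102 and 113 FPKM in those of siMSI1. The groups of MCM7 did not overlap, and the mean fell to 77.8% of the siC level (limma, adjusted p = 0.00900). The 6 proteins form a ring with 1 copy of each, whereas the FPKM of their mRNAs spread over a 6.60-fold range in siC (MCM5 to MCM7) and an 8.52-fold range in siMSI1. The range depends on the gene lengths by which reads were divided, 7338 bases for MCM5 and 4386 for MCM7. MCM8, a relative of the ring that acts in recombination repair, was at 9.72 ± 1.15 FPKM in siC and 6.90 ± 0.356 FPKM in siMSI1 (SD, n = 3). It had a log2 fold change of −0.48 and just missed the threshold (limma, adjusted p = 0.0118), without overlap of the groups.

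**Figure D3:**
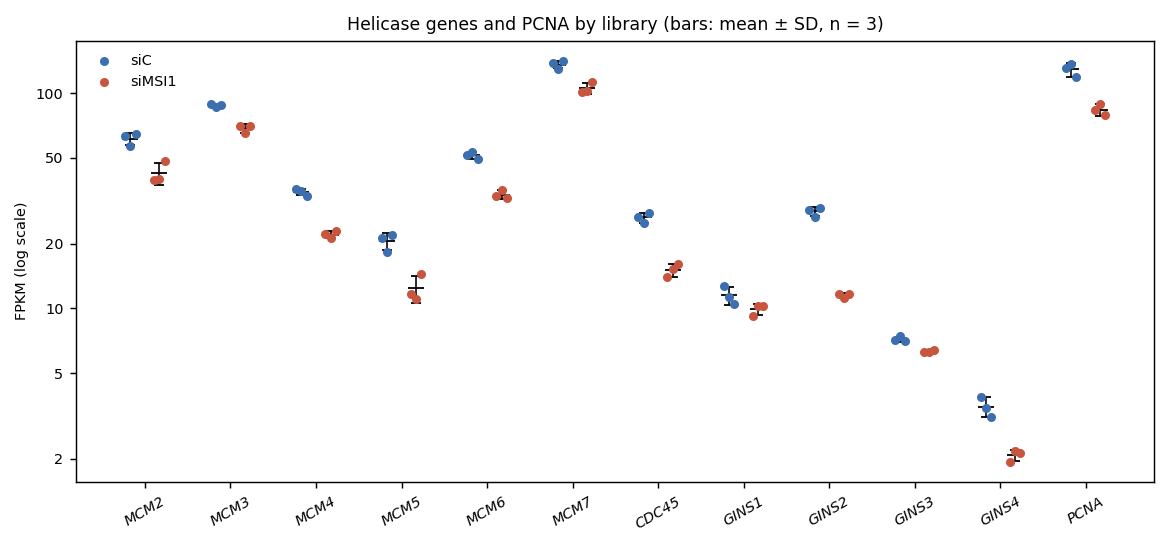
FPKM (log scale) of the MCM2-7, CDC45, GINS and PCNA genes in each library, with the mean and SD of the 3 libraries of each group as bars. The siMSI1 points lie below the siC points for each of the 12 genes, with the widest gap for GINS2 (28.2 to 11.5 FPKM) and narrow ones for GINS1 and GINS3.

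Genes that turn the loaded ring into an active helicase held the largest fall. All 8 were without overlap and lower, where 21.5% of all tested genes were. Of the 8, 5 were past the threshold and lower, where 5.83% of all tested genes were. GINS2 (ENSG00000131153, chr16:85676198-85690073), a subunit of the GINS complex that joins the ring and CDC45, measured 28.7, 26.7 and 29.3 FPKM in the siC libraries against 11.7, 11.2 and 11.6 FPKM in those of siMSI1. The libraries of each group lay within a narrow band and the bands were far apart. GINS2 fell to 40.7% of its siC level, a log2 fold change of −1.29 (limma, adjusted p = 0.000129, standard error 0.066). CDC45 (ENSG00000093009, chr22:19479457-19520612), which completes the active helicase, measured 26.6, 25.0 and 27.8 FPKM in the siC libraries against 14.0, 15.2 and 16.1 FPKM in those of siMSI1. Its groups were apart by more than their spread, with a log2 fold change of −0.81 (limma, adjusted p = 0.000554, standard error 0.077). MCM10 (ENSG00000065328, chr10:13161558-13211110), which helps the assembled helicase to start, measured 7.25, 7.05 and 6.32 FPKM in the siC libraries against 3.94, 4.06 and 3.70 FPKM in those of siMSI1. All 3 siMSI1 values of MCM10 were well under the lowest siC value, with a log2 fold change of −0.80 (limma, adjusted p = 0.000995, standard error 0.089).

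The 4 subunits of GINS did not fall alike, although they act as 1 complex. GINS4 measured 3.88, 3.46 and 3.14 FPKM in the siC libraries against 1.94, 2.17 and 2.14 FPKM in those of siMSI1. The groups of GINS4 were apart at a low level, with 156 to 343 reads per library, and its log2 fold change was −0.71 (limma, adjusted p = 0.00461, standard error 0.12). GINS1 measured 12.7, 11.3 and 10.5 FPKM in the siC libraries against 9.26, 10.2 and 10.3 FPKM in those of siMSI1. The lowest siC value of GINS1 was just above the highest siMSI1 value, and its log2 fold change of −0.21 missed the threshold (limma, adjusted p = 0.138). GINS3 measured 7.11, 7.42 and 7.07 FPKM in the siC libraries against 6.30, 6.29 and 6.40 FPKM in those of siMSI1. All siMSI1 values of GINS3 were below the siC values by a small margin, with a log2 fold change of −0.18 that missed the threshold as well (limma, adjusted p = 0.0933). The ratio of GINS2 to GINS3 was 4.03, 3.6 and 4.15 in siC and 1.86, 1.77 and 1.82 in siMSI1, without overlap. Of the other genes of this step, RECQL4, a helicase needed for firing, fell from 18.1 ± 2.46 to 11.4 ± 1.12 FPKM (SD, n = 3, limma, adjusted p = 0.00560). TOPBP1, a scaffold for CDC45 loading, was at 11.8 ± 1.16 and 9.61 ± 1.34 FPKM (SD, n = 3) and did not pass (limma, adjusted p = 0.106).

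Fold changes differed among the genes of origins and licensing. CDC6 (ENSG00000094804, chr17:40287879-40304657), the loader of the ring, measured 18.3, 17.4 and 17.3 FPKM in the siC libraries against 8.65, 10.0 and 8.64 FPKM in those of siMSI1. Every siMSI1 value of CDC6 was well below the siC values, and its mean fell to 51.5% of the siC level with a log2 fold change of −0.95 (limma, adjusted p = 0.000395, standard error 0.080). CDT1, which acts with CDC6, was at 25.7 ± 2.13 FPKM in siC and 18.9 ± 3.23 FPKM in siMSI1 (SD, n = 3). Its log2 fold change of −0.45 missed the threshold (limma, adjusted p = 0.0331), and the siMSI1 values ran from 16.5 to 22.6 FPKM. GMNN (ENSG00000112312, chr6:24774931-24786099), which encodes geminin, the inhibitor that binds CDT1 and blocks a new round of licensing, measured 17.6, 19.8 and 18.8 FPKM in the siC libraries against 23.3, 24.5 and 19.9 FPKM in those of siMSI1. All siMSI1 values were above the siC values, but replicate 3 only narrowly so. GMNN had the highest fold change of the 54 genes, 0.27 (standard error 0.092), and did not pass (limma, adjusted p = 0.0697). The ratio of CDT1 to GMNN was 1.47, 1.19 and 1.48 in siC and 0.707, 0.724 and 1.13 in siMSI1, again without overlap and with siMSI1 replicate 3 nearest to siC.

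In the origin recognition complex, 5 of 6 genes had a fold change below 0. Of the 6, 1 was past the threshold and lower, where 5.83% of all tested genes were. This was ORC1, the cell cycle-regulated ATPase of the complex. It went from 7.61 ± 0.762 to 4.87 ± 0.394 FPKM (SD, n = 3), a log2 fold change of −0.63 (limma, adjusted p = 0.00434). ORC6 had a log2 fold change of −0.42 and lay just outside the threshold (limma, adjusted p = 0.0108). ORC2 measured 8.80, 9.88 and 8.70 FPKM in the siC libraries against 9.75, 9.97 and 9.26 FPKM in those of siMSI1. The groups of ORC2 overlapped, and its log2 fold change was 0.08 with a 95% interval from −0.10 to 0.27. ORC3, ORC4 and ORC5 overlapped between the groups, with log2 fold changes of −0.08, −0.20 and −0.04. The kinase that triggers firing overlapped in both of its genes: CDC7 was at 8.50 ± 1.05 and 8.07 ± 1.05 FPKM, and its activator DBF4 was at 12.5 ± 1.03 and 12.6 ± 1.72 FPKM (SD, n = 3). The 95% intervals of these log2 fold changes ran from −0.36 to 0.21 for CDC7 and from −0.27 to 0.25 for DBF4. Neither was past an unadjusted p of 0.05 or called by voom.

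Of the 10 polymerase and primase genes, 1 was past the threshold and lower, where 5.83% of all tested genes were. That gene was PRIM2, the large primase subunit, which fell from 10.5 ± 0.889 to 7.67 ± 0.428 FPKM (SD, n = 3, log2 fold change −0.45, limma, adjusted p = 0.00918). PRIM2 did not pass once any 1 library was left out. Its partner PRIM1, the catalytic primase subunit, had a log2 fold change of −0.07 with overlap between the groups. POLA1 and POLA2, the catalytic and the B subunit of polymerase alpha, had log2 fold changes of −0.20 and −0.26 (limma, adjusted p = 0.218 and 0.0411). The catalytic subunits of the other two replicative polymerases were lower without overlap but missed the threshold, POLD1 with −0.41 and POLE with −0.40 (limma, adjusted p = 0.0334 and 0.0154). POLD3 had a log2 fold change of −0.33 (limma, adjusted p = 0.0114). In limma none of these 6 subunits of polymerases delta and epsilon passed, with 3 lower at an unadjusted p under 0.05, and voom called the same number, 2 for delta and 1 for epsilon.

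The other 3 accessory subunits lay just above 0. POLD2 measured 77.1, 71.1 and 81.1 FPKM in the siC libraries against 79.4, 76.4 and 96.4 FPKM in those of siMSI1. The groups of POLD2 overlapped, with siMSI1 replicate 3 above all others, and its log2 fold change of 0.13 had a 95% interval from −0.10 to 0.36. POLE2 was the least abundant gene in siC per length and measured 1.83, 3.14 and 1.86 FPKM in the siC libraries against 2.25, 2.09 and 2.52 FPKM in those of siMSI1. A single siC library set its spread, and the groups overlapped. POLE2 had 79 to 168 reads per library, and its 95% interval from −0.44 to 0.53 includes the log2 fold change of POLE, −0.40. POLE3, a histone-fold subunit, was at 60.7 ± 0.275 and 62.1 ± 1.64 FPKM (SD, n = 3), with an interval from −0.10 to 0.17. The ratio of POLD1 to POLD2 was 0.251 ± 0.0149 in siC and 0.172 ± 0.00399 in siMSI1, and that of POLE to POLE3 was 0.0902 ± 0.00389 and 0.0666 ± 0.00553 (SD, n = 3), both without overlap.

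PCNA, the ring-shaped clamp that keeps polymerases on DNA, measured 131, 137 and 118 FPKM in the siC libraries against 83.2, 89.2 and 78.9 FPKM in those of siMSI1. Every siMSI1 library was below every siC library. PCNA (ENSG00000132646) fell to 65.1% of its siC level, a log2 fold change of −0.62 (limma, adjusted p = 0.00169, standard error 0.080). Of the 5 subunits of the clamp loader RFC, RFC1 and RFC3 fell, by 0.45 and 0.57 on the log2 scale. RFC4 had a log2 fold change of −0.45 and lay just outside the threshold (limma, adjusted p = 0.0109). RFC2 had one of −0.16 and RFC5 one of 0.02, the latter with groups that overlapped and an interval from −0.12 to 0.15. DSCC1, part of an alternative loader that acts in cohesion, had a log2 fold change of −0.44 (limma, adjusted p = 0.0379).

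The single-strand binding protein RPA is a trimer, and its genes differed. RPA1, the large subunit, fell from 61.4 ± 0.437 to 46.2 ± 3.04 FPKM (SD, n = 3, log2 fold change −0.41, limma, adjusted p = 0.00455). RPA2 measured 34.5, 35.5 and 35.5 FPKM in the siC libraries against 36.2, 37.9 and 40.7 FPKM in those of siMSI1. The values of RPA2 were higher in siMSI1 without overlap, yet its log2 fold change of 0.12 did not pass (limma, adjusted p = 0.223). RPA3 had a log2 fold change of −0.01, with an interval from −0.22 to 0.21. Of the genes that finish the lagging strand, FEN1, the flap nuclease, fell from 81.0 ± 0.208 to 58.4 ± 1.46 FPKM (SD, n = 3, log2 fold change −0.47, limma, adjusted p = 0.00131). The ligase gene LIG1 had a log2 fold change of −0.38 that did not pass (limma, adjusted p = 0.0371).

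Both genes of chromatin assembly factor 1, which places histones on new DNA behind the fork, fell. CHAF1B (ENSG00000159259, chr21:36385392-36419015) measured 7.03, 7.05 and 7.58 FPKM in the siC libraries against 3.86, 4.07 and 3.82 FPKM in those of siMSI1. The 2 groups of CHAF1B were tight and far apart, with a log2 fold change of −0.87 (limma, adjusted p = 0.000521, standard error 0.079). CHAF1A, the large subunit, went from 44.8 ± 2.15 to 27.5 ± 0.355 FPKM (SD, n = 3), a log2 fold change of −0.70 (limma, adjusted p = 0.000498). Of the proteins that travel with the fork, CLSPN, the mediator of the replication checkpoint, fell by 0.69 and TIMELESS by 0.43 on the log2 scale. TIPIN, the partner of TIMELESS, was at −0.18 with overlap of the groups. WDHD1, which links the helicase to polymerase alpha, had a log2 fold change of −0.57 and did not pass (limma, adjusted p = 0.0335), with 2.55 to 3.41 FPKM in siMSI1 and 3.81 to 5.20 FPKM in siC.

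Partner genes with unlike fold changes, most of them subunits of 1 complex, were compared by the ratio of their FPKM within each library, which does not depend on the scaling of the library. The 10 ratios were chosen after the fold changes were seen, each with the gene of the lower fold change as numerator. Their direction follows from that choice, and their size is a description. All 10 were lower in siMSI1 without overlap of the groups. For example, the ratio of ORC1 to ORC2 went from 0.839 ± 0.122 to 0.504 ± 0.0354, and that of RFC3 to RFC5 from 0.650 ± 0.0707 to 0.429 ± 0.0365 (SD, n = 3). The ratio of RPA1 to RPA2 went from 1.75 ± 0.0395 to 1.21 ± 0.0962, and that of PRIM2 to PRIM1 from 1.60 ± 0.0604 to 1.23 ± 0.140 (SD, n = 3). Within genes that both fell, the ratio of MCM5 to MCM3 went from 0.235 ± 0.0194 to 0.180 ± 0.0207 and that of CHAF1B to CHAF1A from 0.161 ± 0.00803 to 0.142 ± 0.00652 (SD, n = 3). With 3 libraries against 3, the two-sided exact permutation test gave p = 0.1 for each, the smallest value it allows. It was the same after adjustment over the 10. Since the pairs were picked from the same values, this p-value is no test of them.

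Between the 23 genes past the threshold and the 31 that were not, there was no sharp edge. Of the 31, 15 did not overlap and were lower, 14 overlapped, and GMNN and RPA2 were higher without overlap. Over all tested genes, past the threshold or not, 21.5% did not overlap and were lower. 11 of the 31 had an adjusted p of at most 0.05 from limma. At that threshold 34 of the 54 genes were lower, where 12.9% of all tested genes were. Across the 54 genes, the log2 fold change had a Pearson correlation of 0.07 (Spearman 0.07) with the mean log2 FPKM, −0.28 (−0.30) with GC content and −0.21 (−0.25) with the gene length. Genes share libraries and are not independent, so these are descriptions.

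Differences between libraries of 1 group correlated with the base composition of the genes. The GC content of the 54 genes ran from 37.6% to 65.2%. The deviation of siC replicate 3 from the rest of its group correlated with it at r = 0.81 over the 54 genes, and that of siMSI1 replicate 3 at r = 0.80. For siC replicate 2 the correlation was −0.77, for siMSI1 replicates 1 and 2 it was −0.62 and −0.72, and for siC replicate 1 it was 0.06. Over the 54 genes, siMSI1 replicate 3 was above both other siMSI1 libraries for 21 genes, such as MCM2, MCM5 and POLD2, and below both for 27, such as GMNN. Correcting every library for GC content, a choice made after the data were seen, gave 34 lower genes of 54, where 11.2% of all tested genes with a GC value were lower. It added 11 genes: MCM8, CDT1, ORC6, RFC4, DSCC1, POLA2, POLD1, POLD3, POLE, LIG1 and WDHD1. It also gave GMNN as higher, with a log2 fold change of 0.30 (limma, adjusted p = 0.00509), where 10.7% of all tested genes were higher. The fold changes themselves moved little, that of GINS2 from −1.29 to −1.31 while that of CDC6 stayed at −0.95. Whether the GC pattern has a part in the differences between the groups was not tested.

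**Figure D4:**
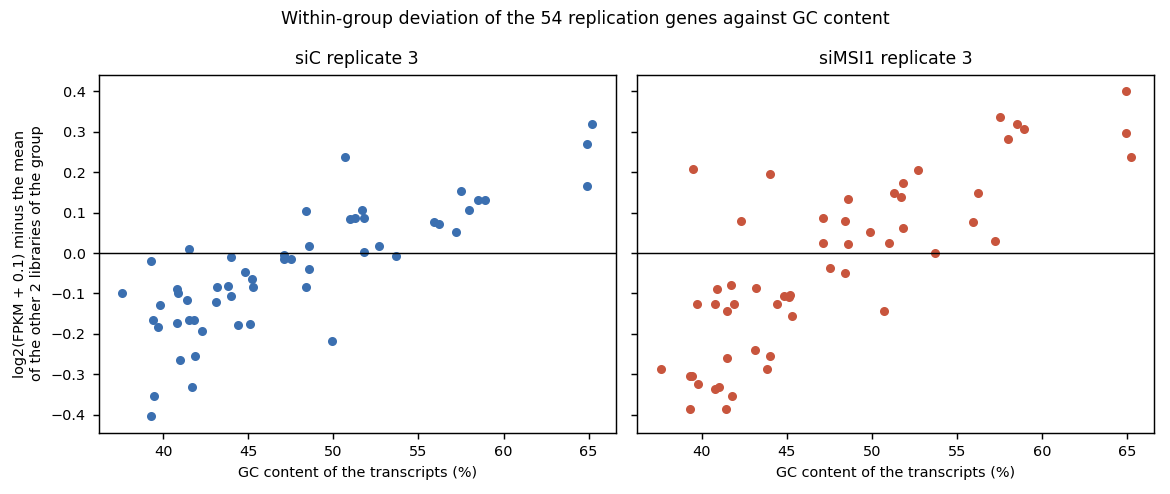
Each point is 1 of the 54 replication genes, with GC content (%) on the horizontal axis and, on the vertical axis, its log2(FPKM + 0.1) in replicate 3 of siC (left) or siMSI1 (right) minus the mean of the other 2 libraries of that group. Both clouds rise from left to right (r = 0.81 and 0.80).

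Some values can hold reads of neighbouring genes. On the same strand, PRIM1 shares 139 exonic bases with NACA, FEN1 shares 49 with FADS2 and CHAF1B shares 89 with MORC3. NACA had a mean of 6498.8 reads, beside 234.2 for PRIM1. For overlaps on the opposite strand, the sources used here do not say whether the counting used the strand. GINS2 overlaps GSE1 on the opposite strand by 7 bases, and DBF4, ORC4, RFC4, RFC5, GINS1, RPA3 and CHAF1A are among those that also overlap a gene on the opposite strand. Their part in these values was not tested. Annotated pseudogenes of the 54 genes held at most 5 reads in a library (DBF4P1, beside at least 712 for DBF4).

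Genes that work beside this machinery were read from lists chosen by function. Among 30 other replication genes, 7 fell and 1 rose, with a median log2 fold change of −0.34. DTL, the adaptor that marks CDT1 for destruction on PCNA, went from 15.4 to 8.20 FPKM (log2 fold change −0.89), and CHTF18, of the alternative clamp loader, from 9.19 to 4.91 FPKM (−0.89). PCLAF, a PCNA-binding protein, had a log2 fold change of −0.69, UHRF1, which helps to copy DNA methylation, −0.65, and the histone chaperone ASF1B −0.59. RNASEH2A and SLBP were the other two, with −0.50 and −0.31. The gene that rose was POLD4, the smallest subunit of polymerase delta, from 3.21 to 5.33 FPKM (0.71, limma, adjusted p = 0.00332). TOP1 and TOP2A, the topoisomerases that untwist DNA, were at −0.02 and −0.04 and did not pass. Without any 1 library other than siMSI1 replicate 3, 2 to 5 genes of this list passed, and 8 passed without that one.

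Of 9 tested genes of the S phase checkpoint, 1 fell, RAD9A of the checkpoint clamp, with a log2 fold change of −0.54, and the median was −0.16. No gene of this list was called higher by limma or voom, with 1 higher at an unadjusted p under 0.05. Of 27 tested G1/S regulators, 7 fell and 3 rose, with a median of −0.24. E2F1, the activating factor of the S phase program, went from 38.1 to 20.5 FPKM (log2 fold change −0.89, limma, adjusted p = 0.00135). CCNE1, the cyclin E partner of CDK2, had a log2 fold change of −0.92, and SKP2, which marks CDKN1B for destruction, one of −1.13. E2F2, CDC25A, TFDP1 and CDK2 also fell, by 0.56, 0.48, 0.38 and 0.37 on the log2 scale. The 3 that rose were the CDK inhibitors CDKN1A (3.52 to 7.43 FPKM, log2 fold change 1.08) and CDKN1B (23.6 to 33.9 FPKM, 0.52), and E2F5 (0.54). Without any 1 library other than siMSI1 replicate 3, 2 to 4 of the G1/S regulators passed, and 9 passed without that one. The call of RAD9A was kept without siC replicate 2 or siMSI1 replicate 3 and lost without each of the others.

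Of 23 genes of nucleotide supply, 6 fell, among them TYMS and RRM2 (log2 fold changes −0.36 and −0.45), and 1 rose, MTHFD1 (0.50), with a median of −0.11. Of 25 genes of mitosis, 4 fell (CDK1, MKI67, TPX2 and PRC1, from −0.50 to −0.35), with a median of −0.23. None of that list was called higher by limma or voom, and 1 was at an unadjusted p under 0.05. Of 10 tested interferon-response genes, read as a sign of a reaction to transfected RNA, OAS1 rose from 0.806 to 1.62 FPKM (log2 fold change 0.92, limma, adjusted p = 0.00857) and 0 fell, with 1 lower at an unadjusted p under 0.05 and 0 by voom. The median of that list was 0.11, and OAS1 did not pass once any 1 library was left out. Without any 1 library other than siMSI1 replicate 3, 0 to 2 genes of nucleotide supply and 0 to 1 of mitosis passed, and 7 and 5 without that one. These counts stand beside 5.83% lower and 5.15% higher of all tested genes, and differences between the lists were not tested. The siMSI1 values lay entirely below siC for 20 of 30 other replication genes, 14 of 25 of mitosis and 14 of 27 G1/S regulators. This held for 9 of 23 genes of nucleotide supply, 3 of 9 of the checkpoint and 2 of 10 of the interferon list, and for 21.5% of all tested genes. In the same order, they lay entirely above siC for 3, 1, 3, 7, 1 and 3 genes (21.4% of all tested genes). Fold changes were below 0 for 25, 23, 18, 14, 6 and 4 genes.

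**Figure D5:**
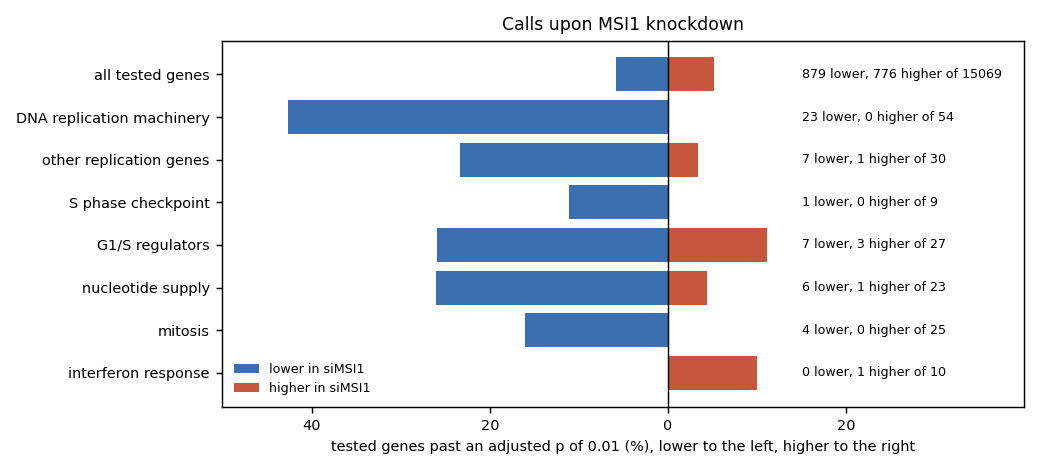
Share (%) of the tested genes of each list past an adjusted p of 0.01 (limma), lower in siMSI1 to the left in blue and higher to the right in red, with the counts beside the bars. The replication machinery has the longest bar to the left, 42.6% (23 of 54), beside 5.83% of all tested genes.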

How the data were processed

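KNS42 polyA RNA was sequenced in 3 siC and 3 siMSI1 libraries. The authors clipped reads with cutadapt 1.14, aligned them to hg38 with HISAT2 2.1.0, counted them per gene with featureCounts 1.5.3 and deposited FPKM values, with 0 columns of unmapped samples. The deposited table also holds the authors' log2 fold changes, p-values and false discovery rates from edgeR 3.18.1, which were not used.

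The members, lists and tests were chosen with earlier results of these data known. Members were matched by gene symbol. FPKM times gene length gave whole reads (tolerance 0.01) for 100% of values above 0. The library scaling implied by the FPKM was 0.977 to 1.03 times that of the reads on genes. Genes averaging 0.5 FPKM or more entered limma 3.58.1 (R 4.3.3) as log2(FPKM + 0.1), using eBayes with trend and robust and no block, with Benjamini-Hochberg adjustment and the study's threshold of 0.01. Since the deposited unit is FPKM, limma was used in place of the count test of the study. On the recovered reads, voom called 32 of the 54 genes lower instead of 23, where 9.46% of all tested genes were. Which genes missed the threshold thus depends on this choice. The same model was tested on simulated data.

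Values in every library are given for MCM2 to MCM7, CDC45, GINS1 to GINS4, PCNA, the 5 lowest and 5 highest fold changes among members with a mean of at least 1 FPKM, and any member called higher. Alternatives were other added values, filters, scalings, variance moderation, threshold, a replicate block, voom on recovered reads, leaving out each library, and, added after the data were seen, a correction for GC content (lowess with a span of 0.3) without and with the block. GC content and gene overlaps came from GENCODE on GRCh38, which holds 57392 of the 58174 genes, another release than the authors used. Promoter windows came from RefSeq. Other steps used Python 3.11.15, SciPy 1.17.1, pandas 2.3.3, numpy 2.4.6 and, for figures, matplotlib 3.10.9. A floor of 3 reads in a gene of 2 kb is 0.0829 to 0.114 FPKM, and covers counting error only. The siRNA sequences were not used here.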

Additional observations from a re-analysis of the deposited data

How the results depend on the processing

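Over 18 alternatives, the 23 genes called lower kept a negative fold change. Leaving out a library could not change this, since their groups did not overlap. Their number was 23 with an added value of 0.01 or 1, 21 after median centring, 22 after quantile normalization and 27 with a mean FPKM of at least 1. Of all tested genes, 5.87%, 5.81%, 5.25%, 6.14% and 7.49% were lower in these fits, in that order. It was 10 without a filter and 12 with plain variance moderation, where 1.47% and 3.23% of all tested genes were lower. It was 32 with voom, 34 at an adjusted p of 0.05 and 34 with the GC correction, which gave 1 higher gene. The shares of all tested genes that were lower were 9.46%, 12.9% and 11.2%, in that order. Leaving out each library gave 8 to 24 lower genes, 0 higher genes, medians of −0.41 to −0.37 and, for MSI1, −2.45 to −2.39. Of all tested genes, 1.86% to 6.16% were lower in those fits. An added value of 1 gave a median of −0.38. The GC corrections were chosen after the data were seen, and the causes of these differences were not tested.

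Whether equal replicate numbers pair the libraries could not be settled. The deviations of libraries of the same number correlated at −0.07, 0.08 and 0.08 over the tested genes. Replicates 2 and 3 of siMSI1 correlated best with their own number and replicate 1 did not. Over the 54 genes, the correlation of the deviation with GC content had the same sign in both groups for replicates 2 and 3, and not for replicate 1. With the replicate block, 32 of the 54 genes were lower and 0 higher, where 7.78% of all tested genes were lower (1173 genes). With the GC correction and the replicate block it was 33 and 0, where 8.96% of all tested genes were lower.

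For the other lists, calls in either direction moved from 8 of the 30 other replication genes to 2 (no filter), 3 (plain variance moderation), 13 (replicate block), 14 (GC correction with replicate block), 16 (GC correction), 17 (voom), 19 (threshold of 0.05) and 2 to 8 (leaving out a library). The checkpoint list moved from 1 to 0 (no filter and plain moderation), 2 (both GC corrections), 3 (0.05) and 0 to 1 (leaving out a library). G1/S regulators moved from 10 to 3 (no filter and plain moderation) and 2 to 9 (leaving out a library). Nucleotide supply moved from 7 to 2 (no filter), 0 (plain moderation) and 0 to 7 (leaving out a library). Mitosis moved from 4 to 0 (no filter and plain moderation), 8 (replicate block and voom), 10 (GC correction with replicate block), 13 (GC correction), 11 (0.05) and 0 to 5 (leaving out a library). The interferon list moved from 1 to 0 (no filter, and the replicate block with and without GC correction), 2 (GC correction and 0.05) and 0 (leaving out any library).

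Of the 54 genes, 46 kept 1 direction throughout. The other 8, none past the threshold, changed sign near 0. Both GC corrections turned DBF4 to 0.0224 and RPA3 to 0.0055. Median centring turned DBF4 to 0.0068 and RPA3 to 0.0058, and quantile normalization turned DBF4 to 0.0052 and RFC5 to −0.0025. Leaving out each library in turn gave −0.134 to 0.0359 for CDC7, −0.102 to 0.0959 for DBF4, −0.143 to 0.0257 for ORC3, −0.102 to 0.0700 for ORC5, −0.0127 to 0.0346 for RFC5, −0.180 to 0.0539 for PRIM1, −0.0716 to 0.0606 for RPA3 and −0.0819 to 0.292 for POLE2. POLE2 was the 1 gene of the 54 with under 100 reads in a library.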
